A study of Neurospora crassa with 12 samples.

Results

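The question addressed here is which Neurospora crassa genes respond differently to sulfur starvation when the transcription factor CYS-3 is defective. The measure was a difference of differences: the change from 24 μM sulfate to no sulfur in the cys-3- mutant minus the same change in wild type, on log2(FPKM + 1), where FPKM is a read count scaled to transcript length and to library depth. All 12 RNA-seq libraries of the series entered, in 4 groups of 3 independent cultures. Of 9758 genes in the files, 5035 reached a mean of 10 FPKM in at least 1 group and were tested, and 160 were called.

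The wild type was strain FGSC 4200. The mutant, labelled Δcys-3, was a single homokaryotic strain from the deletion collection in which a hygromycin resistance cassette replaces only part of cys-3, at its 5′ end; the part that remains was still transcribed, so its FPKM does not check the labels. Mycelia of both strains were grown for 24 h in Vogel's minimal medium with 500 mg/L methionine at 25 °C in constant light with shaking. They were then washed and kept for 4 h with 24 μM sulfate or with no sulfur source. A cys-3 mutant cannot grow without a supplement such as methionine, so the methionine of the preculture was shared by all 4 groups.

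CYS-3 is a basic leucine zipper protein that activates sulfur acquisition genes of N. crassa, and it also activates its own gene. When sulfur is plentiful it is destroyed through a ubiquitin ligase whose F-box subunit is SCON-2 and whose Skp1 subunit is SCON-3. Among the classical CYS-3 targets are both cys-14 and cys-13, which encode sulfate permeases, and the arylsulfatase gene ars-1, whose product releases sulfate from aromatic esters.

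Libraries of a group resembled each other, with Pearson correlations of 0.982 to 0.997 over genes, and held an estimated depth of 7.33 to 11.25 megareads each. The FPKM of genes on the mitochondrial chromosome added up to between 261.3 and 955.4 in wild type and between 716.9 and 881.8 in the mutant. Wild type in 24 μM sulfate replicate 2 (955.4 FPKM) and starved wild type replicate 1 (686.1 FPKM) lay above the other wild-type libraries. All 4 conidiation markers together (con-6, con-8, con-10 and eas, genes of spores rather than mycelia) added up to between 12.9 and 24.0 FPKM in wild type and between 29.6 and 49.7 FPKM in the mutant, without overlap. Only eas, a hydrophobin gene, was high enough to be tested, with an interaction coefficient of -0.61 and an adjusted p of 0.294. The part of these differences in the results was not tested, but the interaction calls with both high-mitochondrial wild-type libraries left out, or with the mitochondrial sum as a covariate, are given below.

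A call required an adjusted p (limma, Benjamini-Hochberg over the 5035 genes) under 0.05, and that the starvation ratios of the 2 strains, taken on group mean FPKM + 1, differ at least 2-fold. The 160 called genes were 3.18% of those tested. In 138 genes (2.74%) the response was lower in the mutant, and in 22 genes (0.437%) it was higher. By adjusted p alone, 698 genes (13.9%) passed, 388 lower and 310 higher, so the excess of lower genes came with the larger differences. This count ran from 453, without starved wild type replicate 3, to 1373 with array weights. In the 538 genes that passed by adjusted p but not by size, the median absolute coefficient was 0.53. Over all tested genes the median coefficient was 0.01, with a median standard error of 0.134.

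Among the 138 lower genes the coefficient ran from -9.14 to -0.99, with a median of -1.84. It was under -2 in 63 genes, under -4 in 31 and under -6 in 12. Every one of the 138 had a positive starvation response in wild type, from 0.63 to 8.91 on the log2 scale, and all passed an adjusted p of 0.05 there. In the mutant the same genes had a median response of -0.02, with 67 above 0, 134 within 0.5 of 0 and none with an adjusted p under 0.05 (limma; 6 with an unadjusted p under 0.05). The lower response of the mutant thus lay near 0 in these genes.

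**Figure D1:**
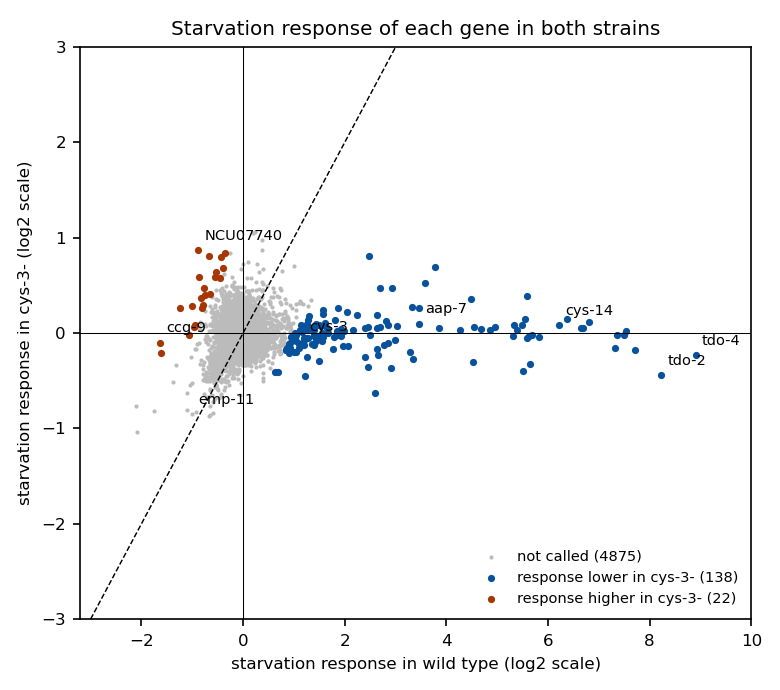
Starvation response of each of the 5035 tested genes in wild type (horizontal axis) and in cys-3- (vertical axis), both as differences of mean log2(FPKM + 1) between no sulfur and 24 μM sulfate; the axes have different scales, and the dashed line marks equal responses. The 138 blue genes (response lower in cys-3-) reach 8.91 in wild type and stay between -0.63 and 0.80 in the mutant, and the 22 red genes (response higher in cys-3-) all lie left of 0, 19 of them above 0 and 3 slightly below.

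The difference arose mostly in a single group. In 111 of the 138 lower genes and 3 of the 22 higher genes, starved wild type was apart from wild type in sulfate and from the starved mutant, while the mutant did not respond by the call and the strains were not called apart in sulfate. Another 10 lower and 2 higher genes were called for starvation in wild type only, and 7 lower and 11 higher genes for strain in starvation only. A further 5 lower genes were also apart between the strains in 24 μM sulfate. The remaining 5 lower and 6 higher genes passed no single comparison. No gene was called in both strains, in the same or in opposite directions. The group with the mean log2 value farthest from the other 3 was starved wild type in 135 of the 138 lower genes and in 15 of the 22 higher genes, and the starved mutant in the other 7 higher genes. Since the groups share a fit, these counts are a description.

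Background counts of the single comparisons give the scale of these classes. Starvation raised 140 genes (2.78%) and lowered 17 (0.338%) in wild type, at least 2-fold and 10 FPKM, whereas a single gene (0.0199%) was called in the mutant. The 17 lowered genes were 5 without wild type in sulfate replicate 1 and 33 without replicate 2 of that group. The strains differed in 8 genes (0.159%) in 24 μM sulfate. In starvation 139 genes (2.76%) were lower and 42 (0.834%) higher in the mutant. Of the 157 genes called in wild type, 130 were called for the interaction. The median absolute response over all tested genes was 0.147 in wild type and 0.104 in the mutant, and across these genes, which are not independent replicates, the responses of the strains had a Pearson correlation of 0.10 and a Spearman correlation of 0.08.

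Of the 3 regulator genes 2 were called, both with a lower response in the mutant, and the list median was -1.28. The cys-3 transcript (NCU03536, chromosome II, 326313 to 331203 of assembly NC12) stood at 66.3, 66.6 and 58.7 FPKM in wild type with sulfate and at 132, 146 and 162 FPKM in starved wild type. In the mutant the part that remains stood at 74.9, 77.2 and 79.7 FPKM with sulfate and at 71.1, 72.2 and 73.7 FPKM without sulfur. Since part of the gene is missing there, its FPKM levels are not directly comparable between the strains. Starved wild type lay above the other 9 libraries, a 2.30-fold rise that the mutant did not show, with an interaction coefficient of -1.28 ± 0.11 (SE, adjusted p = 1.07e-05). The Cufflinks estimates of cys-3 did not follow its implied read numbers evenly over the libraries. With limma-voom on those reads the coefficient was -0.48 (adjusted p = 0.023), short of a call. The reason for the smaller coefficient was not tested. Counting was unstranded, and the locus overlaps NCU03535 over 1563 bases, although NCU03535 itself had group means of at most 1.82 FPKM.

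For scon-2, which encodes the F-box subunit, values were 15.8, 15.4 and 16.1 FPKM in wild type with sulfate and 36.5, 58.2 and 52.8 FPKM in starved wild type. The mutant had 11.9, 12.8 and 13.3 FPKM with sulfate and 12.6, 12.4 and 12.9 FPKM without. Starved wild type was the only high group, and the coefficient was -1.55 ± 0.18 (adjusted p = 0.000123). No such difference was found for scon-3, the Skp1 gene, whose 4 groups overlapped between 238 and 335 FPKM (coefficient -0.28, 95% interval -0.59 to 0.04, adjusted p = 0.233).

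Genes for the use of organic sulfur held the largest differences. Of 15 listed genes, 12 were high enough to be tested and 10 were called, all with a lower response in the mutant, with a median coefficient of -5.69 against 0.01 over all tested genes. Of the 12 tested members 9, all called, reached 10 FPKM only in starved wild type, so the count and median follow in part from the filter and support nothing. Over all tested genes, 117 passed the filter in this way, of which 57 were called lower. Such genes made up 57 of the 138 lower genes, 4 of 8 sulfur transporter genes, 13 of 22 other transporter genes, 3 of 14 protease genes, 2 of 12 genes of nitrogen and nucleic acid catabolism and 1 of 42 genes of cysteine and methionine metabolism. This list and those that follow draw on the study's own account of these samples, so their counts are not independent evidence of their direction.

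The taurine dioxygenase gene tdo-4 (NCU07610, chromosome IV, 248761 to 250797) had the largest coefficient of all. It was read at 1.61, 0.581 and 0.537 FPKM in wild type with sulfate, and at 524, 1226 and 1091 FPKM in starved wild type. Mutant libraries held 0.139, 0.743 and 1.92 FPKM with sulfate and 0.490, 0.656 and 0.440 FPKM without sulfur. Thus tdo-4 was almost silent in 9 libraries and among the abundant transcripts in the other 3, with a coefficient of -9.14 ± 0.50 (adjusted p = 1.49e-07). A second TauD-type dioxygenase gene, tdo-2, behaved alike, with 502, 873 and 705 FPKM in starved wild type and at most 1.55 FPKM in any other library (coefficient -8.67 ± 0.35, adjusted p = 2.67e-08).

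The arylsulfatase gene ars-1 rose in wild type from 0.378, 0.183 and 0.188 FPKM to 73.1, 121 and 119 FPKM. In the mutant no library passed 0.302 FPKM, and the coefficient was -6.22 ± 0.33 (adjusted p = 1.05e-07). Choline sulfatase (chol-16), which frees sulfate from choline-O-sulfate, had group means of 8.37 FPKM in wild type with sulfate, 182 FPKM in starved wild type, and 6.94 and 7.12 FPKM in the mutant (coefficient -4.23). The other called members were tdo-3, tdo-5 and suc-2 of the taurine dioxygenase type, mox-7 (methanesulfonate monooxygenase), NCU05888 (annotated as a dibenzothiophene desulfurization enzyme) and gdc-3 (glutamate decarboxylase). Their coefficients ran from -6.68 for suc-2 to -1.67 for gdc-3. The 2 tested members that were not called were gdc-2 at -0.28 (adjusted p = 0.56) and xdh-2, a xanthine dioxygenase gene, at -0.001 (adjusted p = 0.995).

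Of the 8 sulfur transporter genes, 6 were called, all lower (2.74% over all tested genes), with a list median of -3.16. The permease gene cys-14 stood at 1.36, 5.26 and 6.41 FPKM in wild type with sulfate and at 296, 383 and 388 FPKM in starved wild type. In the mutant it stayed between 0.931 and 1.74 FPKM in all 6 libraries, which gave a coefficient of -6.13 ± 0.47 (adjusted p = 2.99e-06). Methionine permease gene aap-10 went from 6.40, 7.84 and 8.84 FPKM to 55.8, 78.8 and 75.4 FPKM in wild type, and from 6.60, 7.38 and 6.54 FPKM to 7.93, 6.68 and 7.14 FPKM in the mutant. Its 9 other libraries overlapped and lay far below starved wild type (coefficient -2.95 ± 0.19, adjusted p = 5.35e-07). Also called were aap-23 (high-affinity methionine permease, -5.24), trm-50 (annotated as a chromate ion transporter, -4.89), aap-7 and cys-13. The locus of aap-23 overlaps NCU02194 over 2253 bases, and NCU02194, at 37.6 to 55.9 FPKM in the group means, had a coefficient of 0.16 (adjusted p = 0.481). For aap-23 the starved wild-type libraries were spread widely, at 13.4, 83.6 and 71.3 FPKM, and the call was lost with limma-voom. The paper counted aap-23 among the genes without a significant change in starvation. The sulfate transporter genes cys-23 and NCU09642 had coefficients of -0.01 (95% interval -0.28 to 0.25) and 0.02 (-0.21 to 0.26), so a 2-fold difference lay outside both intervals.

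A distinct pattern was seen in 4 sulfur genes that already differed between the strains in 24 μM sulfate. For cys-5, which encodes PAPS reductase, wild type held 19.9, 31.5 and 41.5 FPKM with sulfate and 98.6, 107 and 104 FPKM without. The mutant held 3.45, 3.08 and 2.89 FPKM with sulfate and 3.09, 2.19 and 2.83 FPKM without. No wild-type library overlapped a mutant library in either medium, the ratio of wild type to mutant was 9.87-fold in sulfate and 38.1-fold in starvation, and the interaction coefficient was -1.93 ± 0.27 (adjusted p = 0.000587).

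The same order of groups held for aap-7, a methionine permease gene, with 19.5, 44.6 and 57.5 FPKM in wild type with sulfate and 376, 401 and 480.4 FPKM in starved wild type. Its mutant libraries ran from 9.57 to 12.4 FPKM in both media (coefficient -3.36 ± 0.39, adjusted p = 0.00012). Sulfate permease gene cys-13 stood at 5.03, 11.2 and 14.98 FPKM in wild type with sulfate, 26.0, 22.7 and 22.2 FPKM in starved wild type, 1.48, 1.71 and 1.55 FPKM in the mutant with sulfate and 0.898, 0.764 and 0.988 FPKM in the starved mutant (coefficient -1.67 ± 0.38, adjusted p = 0.0121). The sulfite reductase gene cys-2 had group means of 63.3, 141, 15.4 and 15.2 FPKM in the same order (coefficient -1.16 ± 0.28, adjusted p = 0.0158). In these 4 genes wild type was higher in both media, and the distance was larger in starvation. The interaction call was lost for cys-5 and cys-13 with limma-voom, for cys-13 also with a pseudocount of 10, and for cys-2 without replicate 3 of the mutant in sulfate. Within wild type in sulfate, replicate 1 was the lowest of the 3 libraries for each of them.

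Of the 5 genes that turn sulfate into sulfide, cys-5 and cys-2 were called and the list median was -0.81. The other 3 had coefficients short of 2-fold: cys-11 (ATP sulfurylase) -0.81 with an adjusted p of 0.00511, cys-4 (sulfite reductase) -0.71 with an adjusted p of 0.00873, and adsk-1 (adenylyl-sulfate kinase) -0.58 with an adjusted p of 0.0733. For cys-11 the strains were also called apart in sulfate, at 186, 210.1 and 274 FPKM in wild type and 96.3, 103 and 102 FPKM in the mutant.

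The fifth called gene with a strain difference in sulfate, NCU03534, went the other way in its level. It stood at 0.0562, 0 and 0.0591 FPKM in wild type with sulfate and at 0.942, 2.1 and 1.77 FPKM in starved wild type. In the mutant it stood at 10.7, 12.6 and 11.7 FPKM with sulfate and 14.2, 11.4 and 14.4 FPKM without sulfur. The mutant was above wild type in both media, so the lower response of the mutant (coefficient -1.13 ± 0.27, adjusted p = 0.0156) came from a rise in wild type from near 0. NCU03534 lies at 333578 to 334814 on chromosome II, close to the cys-3 locus that carries the cassette, and it was singled out after its values were seen. Its call was lost without replicate 2 of either mutant group and with a pseudocount of 10, where the coefficient was -0.10.

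**Figure D2:**
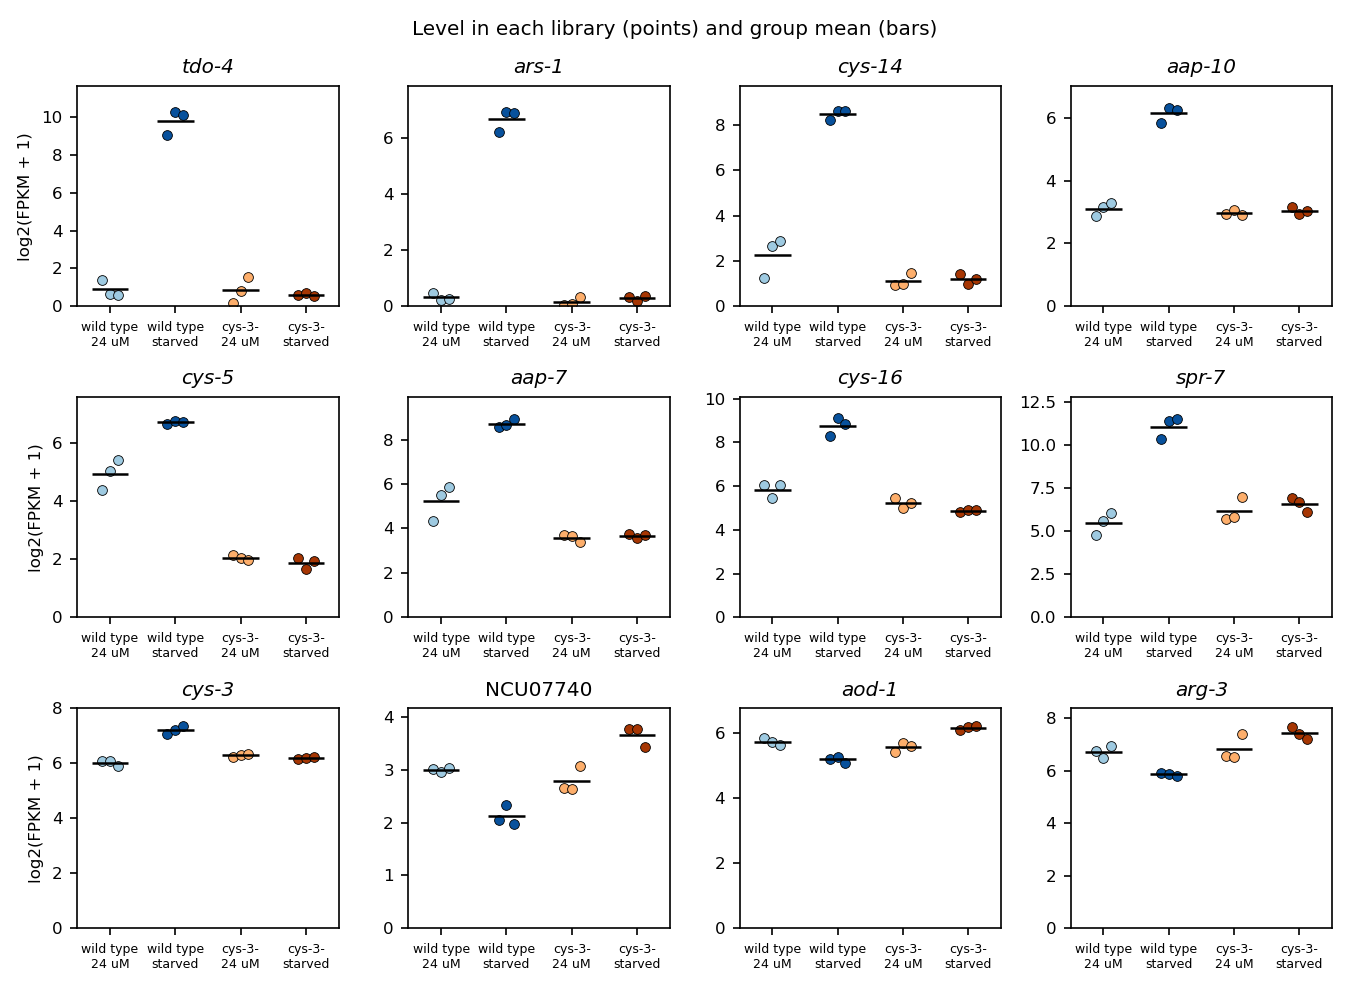
Level of 12 genes in each library on log2(FPKM + 1), with points for the 3 libraries of each group and a bar at the group mean; each panel starts at 0 and has its own scale. In tdo-4, ars-1, cys-14, aap-10, cys-16, spr-7 and cys-3 only starved wild type is raised, in cys-5 and aap-7 wild type is above the mutant in both media, and in NCU07740, aod-1 and arg-3 wild type falls in starvation while the starved mutant is the highest group.

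Genes of cysteine and methionine metabolism differed less. Of 48 listed, 42 were tested and 5 were called, all lower, and the list median was -0.16. By adjusted p under 0.05 alone 17 passed, against 13.9% of all tested genes. Of these 17, hom-1, met-6, ser-7, ser-2 and aat-1 had a higher response in the mutant, with coefficients from 0.455 to 0.56. Among the lower genes that passed by adjusted p but not by size was the SAM synthetase gene eth-1 (-0.97, adjusted p = 0.00102). The cystathionine γ-lyase gene cys-16 was the largest, at 65.0, 42.4 and 65.1 FPKM in wild type with sulfate, 315, 553 and 458 FPKM in starved wild type, 42.5, 31.3 and 36.7 FPKM in the mutant with sulfate and 27.1, 28.5 and 28.6 FPKM in the starved mutant. Starved wild type was above every other library, and the lowest group was the starved mutant (coefficient -3.28 ± 0.28, adjusted p = 7.92e-06). The other called members were met-21 (-1.46), met-20 (homocysteine S-methyltransferase, -1.42), NCU00147 (-1.27) and met-23 (methylthioribose-1-phosphate isomerase, -1.09), the last of them in the methionine salvage pathway. The locus of met-20 overlaps both NCU00797 and NCU00798, and NCU00798 had a coefficient of 0.27 (adjusted p = 0.503).

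In glutathione metabolism 3 of 6 genes were called, all lower (2.74% over all tested genes), with a median of -0.97. A glutathione transferase gene of the omega class, gst-6, stood at 13.7, 19.2 and 16.6 FPKM in wild type with sulfate and 54.2, 62.6 and 67.8 FPKM in starved wild type, while its 6 mutant libraries ran from 18.5 to 22.4 FPKM (coefficient -1.86 ± 0.16, adjusted p = 9.42e-06). The glutamate-cysteine ligase gene gcl-1, for the first step of glutathione synthesis, had -1.25, and gst-2 had -0.99. Of the other sulfur metabolism genes, which include sulfite oxidases and inositol phosphatases, 3 were tested and none was called (median 0.34). By adjusted p under 0.05 alone 2 of those 3 passed, with coefficients from 0.02 to 0.63 over the list.

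Protease genes included 2 of the 5 most abundant called genes, spr-7 and mpr-8. Of 14 listed genes 11 were called, all lower, with a median of -2.71. The other 3 (spr-10, spr-12 and mcp-1) passed by adjusted p with coefficients from -0.99 to -0.87. Over all tested genes 2.74% were called lower, but this list was drawn from the study's account of these samples. The secreted protease gene spr-7, annotated as proteinase T, stood at 26.8, 47.3 and 65.3 FPKM in wild type with sulfate and at 1277, 2662 and 2902 FPKM in starved wild type. In the mutant it stood at 51.7, 56.3 and 126 FPKM with sulfate and at 122, 102 and 67.5 FPKM without. The mutant groups overlapped each other, and starved wild type was above all other libraries, 49.1-fold above wild type in sulfate (coefficient -5.20 ± 0.58, adjusted p = 7.47e-05).

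A metalloprotease gene, mpr-8, went from 150.4, 218 and 249 FPKM to 1135, 1563 and 1741 FPKM in wild type and ran from 187 to 286 FPKM over all 6 mutant libraries (coefficient -2.77 ± 0.30, adjusted p = 7.17e-05). Tripeptidyl-peptidase gene tpp-2 rose 8.13-fold in wild type, from 69.3 ± 12.8 to 564 ± 143 FPKM (SD, n = 3), and had 70.7 ± 6.60 and 67.4 ± 7.05 FPKM in the mutant (coefficient -3.06 ± 0.25, adjusted p = 5.58e-06). Other members were mpr-4 (-3.79), the leucine aminopeptidase gene lap-2 (-3.06), the carboxypeptidase gene mpr-14 (-2.96), the aspartic protease gene apr-10 (-2.88) and the leupeptin-inactivating enzyme gene NCU04430 (-2.64).

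Among 22 other transporter genes, 17 had a called lower and 2 a called higher response, with a median of -2.43. The shares over all tested genes were 2.74% and 0.437%. The largest was NCU09039, of the major facilitator superfamily, at 225, 360.2 and 366 FPKM in starved wild type and no more than 1.37 FPKM in the other 9 libraries (coefficient -7.52 ± 0.32, adjusted p = 2.67e-08). All 5 tested genes with an aap symbol, amino acid permeases, were called lower (median -5.24), but 4 of them were tested only because of starved wild type, and aap-2 was too low to be tested. In aap-22, a general amino acid permease gene, starved wild type held 61.8, 96.4 and 96.8 FPKM and every other library at most 2.25 FPKM (coefficient -5.63 ± 0.38, adjusted p = 7.23e-07). A peptide transporter gene, mfs-9, was among the most abundant members, with 617, 781 and 871 FPKM in starved wild type and 96.3 to 174 FPKM elsewhere (coefficient -2.40 ± 0.25, adjusted p = 5.16e-05). The 2 transporter genes with a higher response, mfs-3 and sut-22, are described with the higher genes.

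Nitrogen and nucleic acid catabolism gave 10 called genes of 12, all lower (2.74% over all tested genes), with a median of -1.34. All 12 passed by adjusted p, against 13.9% over all tested genes. The changes in this list were smaller. The predicted extracellular DNase gene NCU09525 went from 26.1, 30.5 and 32.0 FPKM to 149, 187 and 235 FPKM in wild type, and its mutant libraries ran from 23.5 to 35.7 FPKM (coefficient -2.58 ± 0.23, adjusted p = 1.2e-05). The nuclease gene nuc-14 had -2.34 ± 0.22, but its locus shares 1680 bases with ad-8, which stood at 296.65 to 364.28 FPKM in the group means and had a coefficient of 0.31 (adjusted p = 0.0664). Catabolic glutamate dehydrogenase (gdh-1, -1.82), ribonuclease T1 (grn, -1.35), guanine deaminase (gua-5, -1.33) and 4-aminobutyrate aminotransferase (glu-2, -1.17) were further members.

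Of 10 protein folding genes 2 were called lower, the disulfide isomerase genes ssi-1 (-1.33 ± 0.24, adjusted p = 0.00319) and NCU09223 (-1.11 ± 0.15, adjusted p = 0.000406), with a list median of -0.39. NCU09223 stood at 149, 178 and 163 FPKM in wild type with sulfate, 259, 319 and 342 FPKM in starved wild type, 172, 185 and 153 FPKM in the mutant with sulfate and 148, 145 and 145 FPKM in the starved mutant. Starved wild type did not overlap any other group. The endoplasmic reticulum chaperone gene gpr78 had a coefficient of -0.95 (adjusted p = 0.000667), short of 2-fold. By symbol, the hsp genes had no call among 12 (median 0.00), although 3 passed by adjusted p (hsp70-6 at -0.87, hsp90a at -0.62 and hsp80 at -0.53). The ribosomal crp genes had none among 7 (median -0.10) and the genes of the mitochondrial chromosome none among 17 (median 0.12). With 3.18% of all tested genes called, these counts are not a result about these genes.

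**Figure D3:**
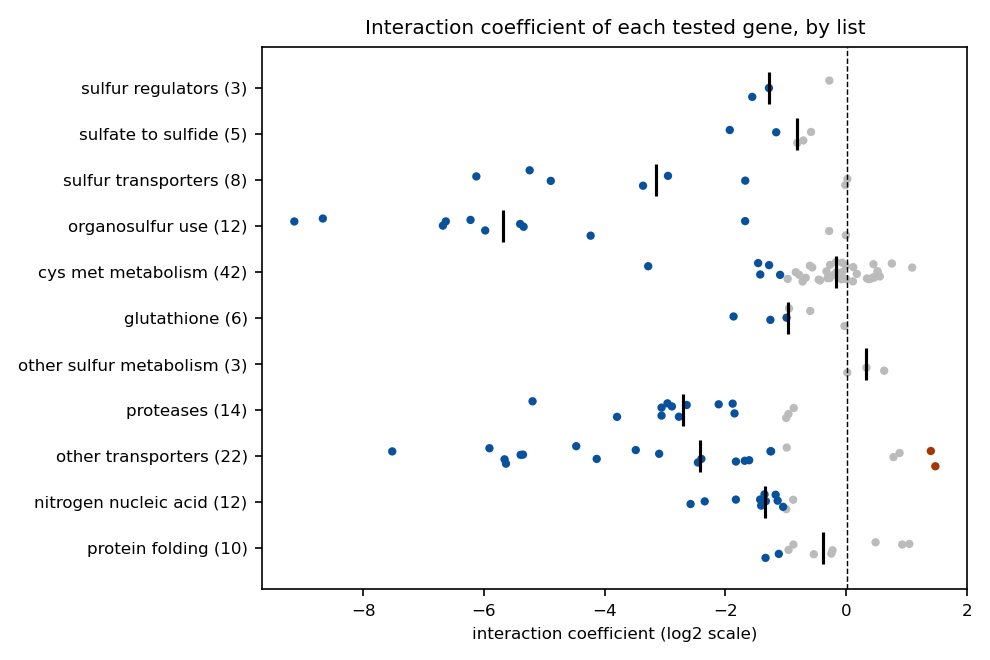
Interaction coefficient (log2 scale, horizontal) of each tested gene in 11 lists, with the number tested in brackets, blue for a called lower and red for a called higher response, grey for no call, a black bar at the list's median and a dashed line at the median of all tested genes (0.01). The medians run from -5.69 for the use of organic sulfur to 0.34 for other sulfur metabolism, and the 2 called higher genes are transporters.

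Abundant called genes outside these lists included rhd (rehydrin) and grd-2 (glutaredoxin). The first rose from 197, 290.0 and 260.2 FPKM to 945, 967 and 1026 FPKM in wild type, with 194 to 219.5 FPKM in the mutant libraries (coefficient -1.97 ± 0.16, adjusted p = 5.5e-06). For grd-2 the coefficient was -1.95 ± 0.21 (adjusted p = 5.16e-05), although its call was lost with limma-voom on implied reads. The genes without a described product among the largest coefficients were NCU05883 (-7.88), NCU05156 (-7.52), NCU10016 (-7.47) and NCU07928 (-6.60). NCU10016 was listed at no more than 4.14e-08 FPKM in every wild-type library with sulfate and every starved mutant library, and at 81.7, 258 and 187 FPKM in starved wild type. Its locus shares 1452 bases with NCU15835, which stood at 24.5 to 36.2 FPKM in the group means and had a coefficient of -0.39 (adjusted p = 0.098).

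Some called genes lay side by side. In 13 runs of neighbouring genes, 31 of the 160 called genes adjoined another called gene. The share to be found among genes in general was not computed, so this count is a description only. Directions did not always match within a run: NCU04264 was called lower (-1.01) and its neighbour inv higher (1.03). The longest run held 6 genes on chromosome VII between 4157036 and 4172944 of assembly NC12: NCU05883, the transporter gene mfs-15, mox-5, NCU05886, the oxidoreductase gene NCU05887 and NCU05888. Their coefficients ran from -7.88 to -5.35. NCU05888 stood at 124, 218 and 177 FPKM in starved wild type and at most 0.759 FPKM in the other 9 libraries, and NCU05887 stood at 132, 231 and 217 FPKM and at most 0.367 FPKM. At the end of the run NCU05883 overlaps gh5-5 over 1463 bases. That neighbour stood at 42.7 FPKM in starved wild type and 21.4 to 22.3 FPKM elsewhere, with a coefficient of -0.95 and an adjusted p of 0.0676.

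Another run was suc-2, mfs-29 and dam-2 on chromosome III between 976728 and 983387, with coefficients from -6.68 to -4.65. The pairs included tdo-4 with the transporter gene NCU07609, cys-14 with aap-22, tdo-3 with aap-23, and ars-1 with NCU06040. By chromosome, 29 of 476 tested genes (6.09%) were called on chromosome VII, and 2.30% to 3.65% on the other 6. Called genes overlapped another annotated locus in 49 of 160 cases (30.6%), against 1403 of all tested genes (27.9%), so overlap with a neighbour was about as common among them as in the background.

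The 22 genes with a higher response in the mutant differed from the lower genes in size and form. Their coefficients ran from 1.03 to 1.75, with a median of 1.18. In wild type every response was negative (-1.64 to -0.36, median -0.80), with an adjusted p under 0.05 in 18. In the mutant 19 were above 0 (-0.21 to 0.87, median 0.40), but only NCU07740 and aod-1 had an adjusted p under 0.05 there, and 14 had an unadjusted p under 0.05. The larger response was that of wild type in 15 genes and that of the mutant in 7. With a pseudocount of 10 only 2 of the 22 were still called.

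NCU07740 had the largest coefficient of this direction. It stood at 7.09, 6.75 and 7.20 FPKM in wild type with sulfate and 3.17, 4.03 and 2.94 FPKM in starved wild type. In the mutant it stood at 5.33, 5.19 and 7.41 FPKM with sulfate and 12.7, 12.6 and 9.77 FPKM without sulfur. It thus fell in wild type and rose in the mutant without overlap in either strain, with a coefficient of 1.75 ± 0.21 (adjusted p = 0.000159) and adjusted p values of 0.00128 and 0.0412 for the separate responses.

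The alternative oxidase gene aod-1, whose product bypasses part of the respiratory chain, had the same form at a higher level. Wild type held 57.1, 51.6 and 48.7 FPKM with sulfate and 35.7, 37.6 and 33.1 FPKM without, and the mutant held 42.1, 51.0 and 47.3 FPKM with sulfate and 66.8, 72.1 and 73.1 FPKM without. The starved groups stood on opposite sides of the sulfate groups (coefficient 1.14 ± 0.12, adjusted p = 5.71e-05). In these 2 genes both responses passed the test, but each was less than 2-fold in at least 1 strain, so neither was called in both. For NCU07740 the wild-type group means also stayed below the 10 FPKM that such a call required.

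Amino acid genes were also among the higher set. For arg-3, the large subunit of the arginine-specific carbamoyl phosphate synthetase, wild type held 106, 88.7 and 123 FPKM with sulfate and 59.5, 57.9 and 54.6 FPKM without. The mutant held 94.5, 92.5 and 167 FPKM with sulfate and 204, 169 and 146 FPKM without, so its 2 groups overlapped through replicate 3 in sulfate (coefficient 1.46 ± 0.28, adjusted p = 0.00532). Without that library the coefficient was 1.73 (adjusted p = 0.000212). The call of arg-3 was lost with limma-voom on implied reads, and its locus overlaps NCU02678, with group means of at most 2.42 FPKM, over 1101 bases.

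Of the 10 tested genes with an arg symbol, arg-3 was the only call, and the median coefficient was 0.60. An adjusted p under 0.05 was reached by 6 of them, against 13.9% of all tested genes. These genes were named after their values were seen. Among them arg-2, arg-5 and arg-10 had coefficients of 0.70 (adjusted p = 0.0119), 0.75 (adjusted p = 0.0209) and 0.72 (adjusted p = 0.0281), all negative in wild type and positive in the mutant. The exception was arg-15, at -0.63 (adjusted p = 0.0126). The glycine cleavage gene gly-3 had 1.24 ± 0.31 (adjusted p = 0.0195), with a mutant response of 0.80 that did not pass the test, and its locus overlaps NCU02726 over 1581 bases (coefficient of NCU02726 -0.16, adjusted p = 0.471).

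In other higher genes the fall in wild type carried the difference. The trehalose synthase gene ccg-9 stood at 40.1, 21.4 and 21.002 FPKM in wild type with sulfate and 8.62, 8.15 and 6.61 FPKM in starved wild type, against 21.7, 24.9 and 19.6 FPKM and 17.5, 16.9 and 28.6 FPKM in the mutant. The mutant groups overlapped each other, and starved wild type lay below all other libraries (coefficient 1.54 ± 0.33, adjusted p = 0.0098). The sugar transporter gene sut-22 fell 3.91-fold in wild type, from 13.7, 8.64 and 8.35 FPKM to 3.18, 2.69 and 1.98 FPKM, and overlapped between the mutant groups (coefficient 1.41 ± 0.31, adjusted p = 0.0106). The siderophore gene sit-9 (1.50 ± 0.42, adjusted p = 0.0341) and the ferric reductase gene fer-3 (1.21 ± 0.23, adjusted p = 0.00492) act in iron uptake. The call of sit-9 held in only 4 of the 12 fits with a library left out.

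In the transporter gene mfs-3 the mutant response was the larger. Wild type held 10.9, 8.98 and 9.16 FPKM with sulfate and 6.73, 4.99 and 5.45 FPKM without, and the mutant held 8.69, 9.18 and 16.5 FPKM with sulfate and 22.7, 21.4 and 16.3 FPKM without (coefficient 1.48 ± 0.28, adjusted p = 0.00492). Replicate 3 of the mutant in sulfate was again the highest of its group. It was the highest of its group in 13 of the 22 higher genes, and wild type in sulfate replicate 1 in 16. Isocitrate lyase (acu-3, 1.07, adjusted p = 0.0392) followed the same order but was called in only 12 of 25 alternative settings. Among 6 tested genes with an acu symbol it was the only call (median 0.08).

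**Figure D4:**
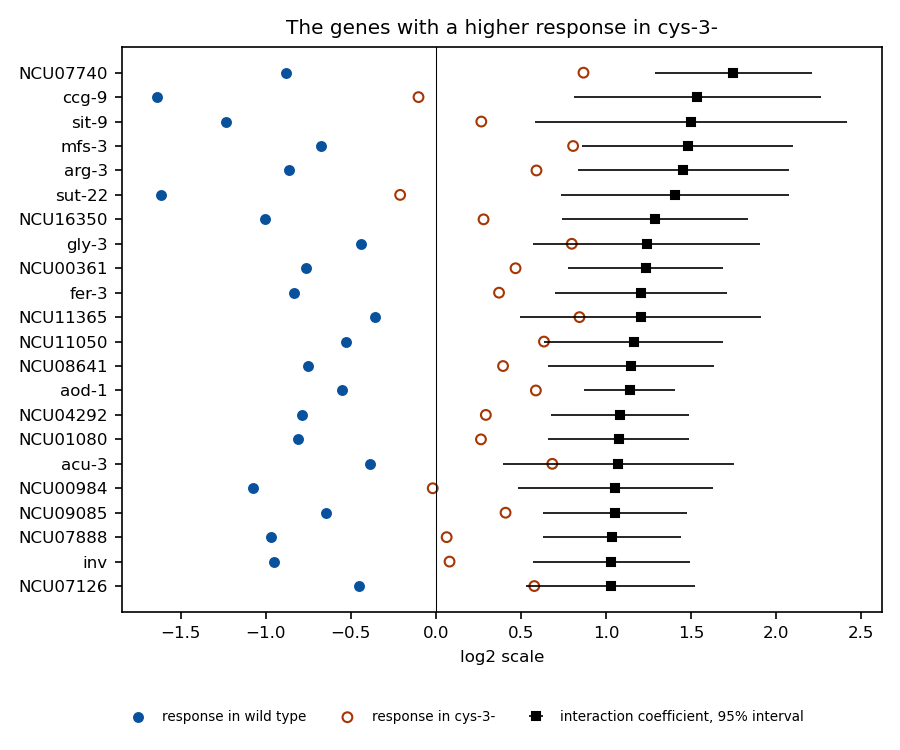
Starvation response in wild type (filled circles) and in cys-3- (open circles) of the 22 genes with a higher response in the mutant, with the interaction coefficient and its 95% interval (squares and lines), all on the log2 scale. All wild-type responses lie between -1.64 and -0.36, 19 of the 22 mutant responses lie above 0, and the coefficients run from 1.03 to 1.75.

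In the mutant itself few genes were called for starvation, and the count by adjusted p varied with the setting. The only call, NCU07316, stood at 10.6, 12.3 and 13.9 FPKM in the mutant with sulfate and at 26.4, 26.7 and 21.9 FPKM without sulfur, and at 10.6, 14.4 and 12.6 FPKM and 22.6, 15.5 and 12.5 FPKM in wild type. Its response did not differ between the strains by the test (coefficient 0.60, 95% interval 0.06 to 1.15, adjusted p = 0.138). By adjusted p under 0.05 alone, 21 genes changed in the mutant, 16 higher and 5 lower, and 850 had an unadjusted p under 0.05. That count was 213 with array weights, 72 with the mitochondrial covariate, 61 with both high-mitochondrial wild-type libraries left out and 0 to 50 with a single library left out. It was 0 without replicate 1 of the mutant in sulfate and without any of the 3 starved mutant libraries. Of the 21, 10 also passed in wild type, 7 in the same direction and 3 in the opposite one. The phosphoglycerate mutase gene emp-11 fell in both strains, by 1.00 in wild type (adjusted p = 0.000601) and by 0.85 in the mutant (adjusted p = 0.0412), with an interaction coefficient of 0.15 (95% interval -0.33 to 0.63). The nitrate reductase gene nit-3 was higher in starvation in both, by 0.73 in wild type and by 0.48 in the mutant, with a coefficient of -0.25 (adjusted p = 0.203). The single call was not stable: it was absent in 5 of the settings that keep all libraries. It was also lost in several fits with a library left out. Among these were the fits without wild type in sulfate replicate 3 and without starved wild type replicate 2, which are not mutant libraries. Without replicate 3 of the mutant in sulfate 10 genes were called, among them gly-3, mfs-3 and NCU07740.

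Not every gene called in wild type was also called for the interaction. Of the 27 genes called in wild type but not for the interaction, 15 rose and 12 fell. Their interaction had an adjusted p of 0.05 or more in 14, but the 95% interval lay within 1 of 0 in only 2, so for most a 2-fold difference between the strains was not excluded by its interval. The rest passed by adjusted p and missed only the 2-fold limit. Nearly all of these rose in wild type, such as nut-1 (-0.99, adjusted p = 0.000287) and spr-12 (-0.87, adjusted p = 0.00258). The exception was ce3-1, which fell (0.79, adjusted p = 0.00516). Among the 12 that fell were 3 heat shock protein genes, named as examples. The small heat shock protein gene hsp30 held 320.2, 195 and 122 FPKM in wild type with sulfate and 48.5, 41.5 and 46.5 FPKM without, and 197, 193 and 212 FPKM and 71.7, 88.5 and 142 FPKM in the mutant. Its groups did not overlap in either strain, with a response of -2.09 in wild type (adjusted p = 0.000253) and -1.04 in the mutant (adjusted p = 0.108), and a coefficient of 1.05 (95% interval 0.16 to 1.94, adjusted p = 0.114). The related hsp30-2 and the chaperone gene hsp98 had mutant responses of -0.82 and -0.55, neither past the test, and coefficients of 0.93 and 0.49. In wild type with sulfate, replicate 1 was the highest library for all 3.

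Genes next to the 2-fold limit show how the threshold acted. Just inside it were gst-2, NCU00965 and NCU03637, with coefficients of -0.99, -1.01 and -1.01. Just outside were NCU00548 (-1.0002), nut-1 (5′-nucleotidase, -0.99) and spr-10 (-0.99), which all passed by adjusted p. The limit was applied to group mean FPKM + 1, so NCU00548 missed it with a fitted coefficient at the limit itself. The values of gst-2, at 27.1 ± 0.755 and 54.0 ± 11.7 FPKM in wild type and 31.7 ± 1.30 and 30.9 ± 1.42 FPKM in the mutant (SD, n = 3), and those of nut-1, at 157 ± 12.7 and 315 ± 39.3 FPKM in wild type and 149 ± 5.07 and 149 ± 4.87 FPKM in the mutant, had the same form.

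The libraries of starved wild type did not weigh equally. Replicate 1, which had the highest mitochondrial sum of its group, was the lowest of the 3 in 127 of the 138 lower genes, with a median log2(FPKM + 1) of 5.74 over those genes against 6.35 and 6.31. Without it 188 genes were called, 157 lower and 31 higher. Leaving out any other single library gave 141 to 171. With both high-mitochondrial wild-type libraries left out 200 were called (169 lower and 31 higher), and with the mitochondrial sum as a covariate 162. Of the 138 lower genes, 115 were called whichever library was left out, as were 9 of the 22 higher genes. With a pseudocount of 10 the calls were 101 lower and 2 higher, so 98.1% of them were lower against 86.2% with a pseudocount of 1.

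**Figure D5:**
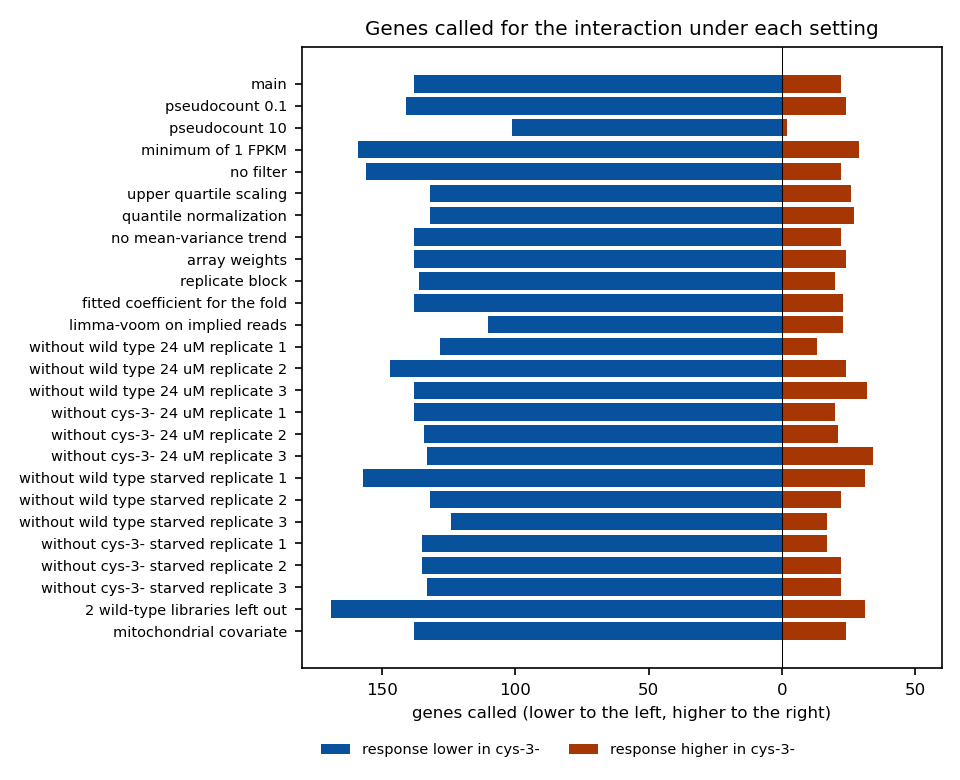
Number of genes called for the interaction under the main setting and 25 alternatives, with lower responses in cys-3- drawn to the left and higher responses to the right of 0. The lower calls run from 101 (pseudocount 10) to 169 (2 wild-type libraries left out), and the higher calls from 2 (pseudocount 10) to 34 (without cys-3- in 24 μM sulfate replicate 3).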

How the data were processed

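Polyadenylated RNA of 12 mycelial cultures was sequenced. The authors aligned single-end reads to predicted N. crassa transcripts with HISAT2 (version 2.1.0 in the processing notes) and estimated FPKM values per library with Cufflinks 2.2.1, unstranded; the deposited FPKM values were not scaled between libraries. Without strand, reads of overlapping genes cannot be told apart. RefSeq symbols (assembly NC12) matched 9757 of 9758 locus tags, with equal coordinates in 99.9%.

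Values of log2(FPKM + 1) were fitted with limma 3.58.1 (R 4.3.3, mean-variance trend, all 12 libraries, 1 mean per group) where a group reached a mean of 10 FPKM. Fold changes on this scale understate those of low genes. Exact permutation of 3 against 3 libraries cannot go below 0.1, so none was used. Single comparisons were called at an adjusted p under 0.05, a 2-fold ratio of group means and a mean of at least 10 FPKM in 1 of the 2 groups. Depth was estimated from the Cufflinks confidence limits, which imply a read number per gene: 77.2% of 16488 implied numbers of at most 20 were whole to within 0.05, and in 134 of 4996 genes FPKM did not follow them evenly. The depth is approximate and covers counting error only. On simulated data 198 of 200 changed genes were recovered for the interaction (5035 genes). The simulated shifts were of 2 or 3 log2 units, in starved wild type alone, with no other starvation response. Recovery of smaller differences, or of those that arise in the mutant, was therefore not measured.

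Named genes were the 10 largest coefficients in each direction, the 3 largest of each class, the 5 most abundant, the regulators, up to 8 of each list and those next to the 2-fold limit. NCU03534, cys-2, acu-3, NCU07316, emp-11, nit-3, chol-16 and the arg genes were chosen after their values were seen. The comparison, lists and tests were chosen with earlier results of these data known. Alternatives were pseudocounts of 0.1 and 10, a minimum of 1 FPKM, no filter, 2 other scalings, no trend, array weights, a replicate block, the fitted coefficient for the fold, limma-voom on implied reads, each library left out and, chosen after seeing the data, both mitochondrial settings. A planned promoter motif count was not analysed here. Figures used matplotlib 3.10.9.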

Additional observations from a re-analysis of the deposited data

Results flagged for a closer look

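The starvation response differed between the strains in 160 genes by the test of the difference itself, the interaction term. The 138 with a lower response in the mutant were led by tdo-4, tdo-2, NCU05883 and NCU09039, and the 22 with a higher response by NCU07740, ccg-9 and sit-9, of which sit-9 was called in only 15 of 25 alternatives.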

How the results depend on the processing

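No called gene changed direction under any of the 25 alternatives, and 80 lower genes and 1 higher gene (ccg-9) were called in all of them. The 160 calls fell to 103 with a pseudocount of 10, of which 2 were higher against 22. With limma-voom 133 were called, 110 lower and 23 higher, and cys-3, cys-5, cys-13, suc-2, aap-23 and arg-3 were among those lost. The genes also apart between the strains in sulfate fell from 5 to 2 with a pseudocount of 10 and with limma-voom. Upper quartile scaling gave 158 and quantile normalization 159. Starvation in the mutant had 0 calls with a minimum of 1 FPKM, no filter, no trend, the replicate block and limma-voom (3 to 11 genes by adjusted p alone, against 21 as reported and 213 with array weights), and 3 with quantile normalization. The strain difference in 24 μM sulfate had 14 calls with array weights and 38 with both high-mitochondrial wild-type libraries left out (chosen after seeing the data).

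Leaving out each library in turn gave 141 to 188 interaction calls (124 to 157 lower, 13 to 34 higher), 141 to 186 for starvation in wild type, 0 to 10 in the mutant, 5 to 37 for strain in sulfate (37 without wild type in sulfate replicate 2), 164 to 224 for strain in starvation, and 106 to 139 genes apart in starved wild type alone. The higher calls fell to 13 without wild type in sulfate replicate 1 and rose to 34 without the mutant in sulfate replicate 3.

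With the replicate block 156 genes were called. Of 18 pairs of libraries with the same replicate number, 2 had deviations correlated over 0.1 (range -0.51 to 0.45, median -0.06). Both were between wild type and the mutant in 24 μM sulfate (0.23 for replicate 1 and 0.45 for replicate 2). Whether cultures with the same number shared a batch was not tested. For the named genes, 2508 gene values kept their call, 104 lost it, 37 gained one and 0 reversed. Counts of the gene lists moved by over 1.5 times in 7 cases and did not in 293.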

Other observations

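Among the 8 genes called between the strains in 24 μM sulfate, cys-11, cys-22 and gst-4 were not called for the interaction and were called between the strains in both media; cys-11 is described above. The cysteine dioxygenase gene cys-22, whose product breaks cysteine down, stood at 21.997, 28.3 and 17.5 FPKM in wild type with sulfate and 64.4, 72.5 and 60.7 FPKM in the mutant with sulfate. Without sulfur it stood at 15.6, 9.65 and 10.8 FPKM in wild type and 59.9, 62.4 and 61.4 FPKM in the mutant. It fell in wild type (-0.86, adjusted p = 0.00342), and its interaction coefficient of 0.76 ± 0.24 just missed the threshold (adjusted p = 0.0527). The glutathione transferase gene gst-4 was higher in wild type, 3.60-fold in sulfate and 3.79-fold in starvation, with a coefficient of -0.03 (95% interval -0.55 to 0.50). The genes cys-22 and gst-4 were chosen after their values were seen.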
